A study of Homo sapiens with 6 samples.

Results

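The kinesin motor genes of HEK-293T cells are described here. A gene was taken as a member when its symbol had the form of a kinesin name, KIF or KIFC followed by a number and at most one of the letters A to C, and when it had at least 10 estimated counts in at least 3 of the 6 libraries. Of 16655 genes in the deposited table, 41 carry such a symbol and 38 of them are members. The other 3 are KIF4B, KIF19 and KIF25, which had between 1 and 6 counts in any library. The members were divided by their known function into 13 mitotic kinesins, 15 transport kinesins and 10 others.

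RNA-seq was done on HEK-293T, a line from human embryonic kidney with the large T antigen of SV40. Both groups were transfected by lipofection and cultured for 24 h. The GFP group (n = 3) received the empty pEGFP-C1 vector, and the RfA1 group (n = 3) received the same vector with RfA1, a reflectin from the light-reflecting cells of squid, fused to GFP. All 6 libraries therefore come from 1 line with a transient transfection, and untransfected cells were not separated, so that fewer cells expressing a gene and less RNA per cell cannot be told apart. The study asked how RfA1 expression changes the transcriptome. Reads from the plasmids were not used here, so RfA1 itself gives no check of the labels.

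Kinesins are ATP-driven motors that walk on microtubules, most of them towards the plus end. In dividing cells they build the spindle, move chromosomes and complete cytokinesis, and genes for this work are switched on in G2 and M phase. In interphase cells other kinesins carry vesicles, organelles and ciliary cargo, and some take part in ciliary signaling or in the control of microtubule length.

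The libraries held 10272306 to 11566284 estimated counts. For 1 gene across libraries the unit is CPM, after TMM normalization of the library sizes, and levels between genes are given as TPM, which divides by transcript length. In the first principal component over all tested genes, with 44.6% of the variance, RfA1 replicate 2 (score 10.2) lay with GFP replicates 2 and 3 (18.2 and 12.4) and apart from RfA1 replicates 1 and 3 (-16.5 and -22.0). GFP replicate 1 had a score of -2.18. The loadings of this component followed the GC content of the transcripts (Spearman's rho 0.75), so results are given below with and without RfA1 replicate 2 and with and without a GC correction where these change them. Of the marker genes for HEK-293T, NEFL (42.7 to 51.7 TPM), NEFM, ENO2, PAX2, EMX2, LHX1 and INA were present and PAX8 was at or near 0. The leukocyte and endothelial genes PTPRC, PECAM1 and VWF did not exceed 0.06 TPM. Other cell type markers were LYZ (at most 0.97 TPM), ALB (at most 0.62), COL3A1 (at most 0.94), COL1A1 (8.20 to 10.05) and the erythroid gene HBA1, which was at 56.5 to 61.8 TPM in GFP cells and 36.6 to 49.9 TPM in RfA1 cells. The part of these genes in the kinesin results was not tested.

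The mitotic kinesins were the most abundant group. In the GFP libraries their summed level was 501 ± 7.31 TPM (SD, n = 3), against 215 ± 8.71 TPM for the transport kinesins and 85.6 ± 4.65 TPM for the others. They took 62.5% ± 1.25 of the kinesin TPM in GFP cells and 64.0% ± 1.40 in RfA1 cells. All 13 mitotic members had a mean level above 10 TPM, whereas 8 of 15 transport members and 8 of 10 others had a mean below it. The summed mitotic level was 509, 497 and 496 TPM in GFP cells and 532, 511 and 525 TPM in RfA1 cells, which do not overlap. On this scale the median gene also stood 0.045 higher in RfA1 cells (log2 of TPM + 1), and on the count scale the mitotic genes had a median difference close to 0.

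KIF22 (NCBI Gene 3835), or Kid, a chromokinesin that pushes chromosome arms away from the poles, had the highest level of the 38 genes (mean 142.9 TPM, range 132 to 153), and its range overlapped that of no other member. KIFC1, a minus-end motor that focuses spindle poles, followed with 73.4 TPM and KIF1C, a carrier of vesicles and integrins, with 69.5 TPM, and the ranges of these 2 overlapped. KIF20A (45.4 TPM), which brings the chromosomal passenger complex to the central spindle, and KIF2C (44.8 TPM), or MCAK, which depolymerizes kinetochore microtubules, came next and also overlapped. Next in order were KIF23 (38.9 TPM), KIF18B (36.1), KIF2A (30.3), KIF5B (28.8) and KIF7 (28.5), and neighbors among them did not differ beyond their spread over libraries. KIF11, or Eg5, the motor that separates spindle poles, stood at 25.3 TPM. At the low end were KIF5C (0.95 TPM) and KIF26B (0.61 TPM).

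**Figure D1:**
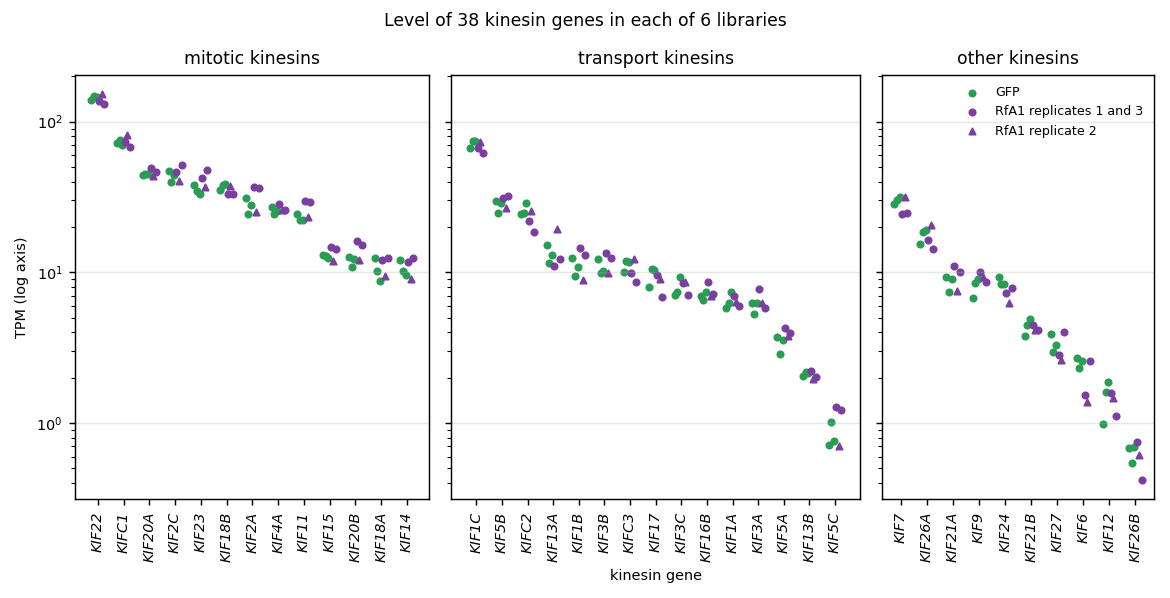
Level of each of the 38 kinesin genes in each library, in TPM on a log axis, with the mitotic, transport and other kinesins in separate panels and ordered by mean level. Green points are the 3 GFP libraries, violet points RfA1 replicates 1 and 3 and violet triangles RfA1 replicate 2. KIF22 (132 to 153 TPM) lies above all others, and the points of some genes spread widely, as for KIF13A (10.97 to 19.33 TPM).

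Within families of similar motors, 1 gene usually carried most of the transcripts. KIF5B, the ubiquitous heavy chain of conventional kinesin, made up 86.7% ± 0.32 of the KIF5 TPM in GFP cells and 85.5% ± 0.66 in RfA1 cells, and the neuronal KIF5A and KIF5C shared the rest. KIF1C made up 80.4% ± 2.02 of the KIF1 family in GFP cells and 78.4% ± 3.79 in RfA1 cells. The kinesin-2 genes were more even, with KIF3B at 43.8% ± 4.13, KIF3C at 32.1% ± 4.23 and KIF3A at 24.1% ± 0.69 in GFP cells. KIFC1 took 66.0% ± 2.42 of the minus-end KIFC genes in GFP cells and 69.8% ± 1.49 in RfA1 cells. TPM depends on the transcript lengths the authors' software used, and for KIF13A the ratio of TPM to CPM varied over libraries with a coefficient of variation of 22.6%, against a median of 4.52% over the 38 genes. KIF6 (13.3%) and KIF5C (10.0%) were the other members above 10%.

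Most of the mitotic members, but not all, share a feature that the grouping did not use, namely letters in their promoters. Genes expressed in G2 and M phase often hold a CHR element, bound by the MuvB complex, near the transcription start and a CCAAT box, bound by NF-Y, upstream of it. Promoter windows of 300 bases (250 before to 50 after the start) from RefSeq on GRCh38.p14 were found for 31 of the 38 members, for 13 of 13 mitotic, 11 of 15 transport and 7 of 10 other kinesins. The letters TTTGAA or TTCGAA, the CHR, and CCAAT were searched on both strands, and no match of one overlapped a match of the other. The background is all 27305 genes and 35116 windows of the RefSeq promoter table, not selected by expression in these cells. The CHR letters were in 10 of 13 mitotic genes (76.9%), in 1 of 11 transport genes (KIF5B) and in 1 of 7 others (KIF24). They were in 19.5% of all genes and 16.4% of all windows in that table. CCAAT was in 10 of 13 mitotic (76.9%), 4 of 11 transport (36.4%) and 3 of 7 other genes (42.9%), against 39.7% of all genes and 34.6% of all windows. Both were in 9 of 13 mitotic genes (69.2%), against 7.85% of all genes. KIF20A, KIF2A and KIF2C are the mitotic members without the CHR letters in this window, and KIF15, KIF2A and KIF2C are those without CCAAT. A match of letters is a description and not a site shown to be bound.

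**Figure D2:**
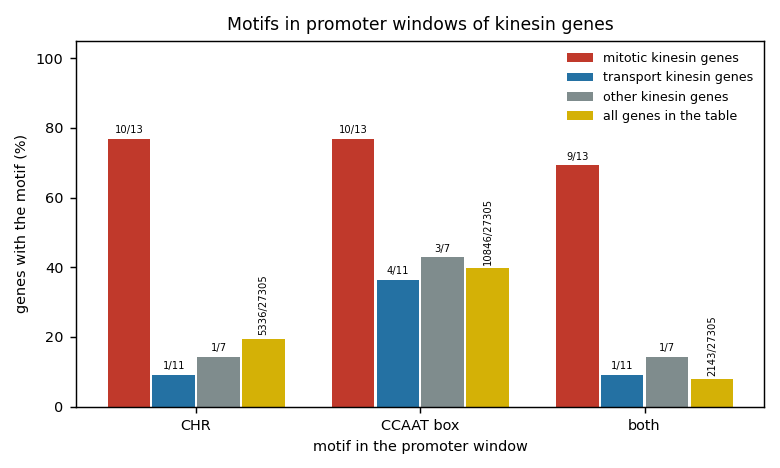
Percentage of genes whose RefSeq promoter window holds the CHR letters, the CCAAT box or both on either strand. Bars are for the 13 mitotic (red), 11 transport (blue) and 7 other (grey) kinesin genes with a window. Yellow bars are for all 27305 genes of the promoter table. The number of genes stands over each bar. The CHR letters are in 76.9% of the mitotic kinesin genes and in 19.5% of all genes.

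The CHR match nearest to a start is given for each mitotic kinesin with one and for KIF24. They are shown here in 30 bases each, 5′ to 3′ on the strand of the gene, with the 6 matching letters in capitals (TTCAAA is the match on the opposite strand), in order of position from upstream to downstream for the mitotic genes with KIF24 last, to show their placing and the letters around them.
KIF23: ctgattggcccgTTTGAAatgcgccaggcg
KIF15: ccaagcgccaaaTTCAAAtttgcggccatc
KIF4A: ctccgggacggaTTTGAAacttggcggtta
KIF11: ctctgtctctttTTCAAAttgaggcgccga
KIF22: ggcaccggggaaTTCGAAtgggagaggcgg
KIF18A: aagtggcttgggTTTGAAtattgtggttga
KIF14: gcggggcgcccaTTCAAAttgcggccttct
KIF18B: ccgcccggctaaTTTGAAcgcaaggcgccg
KIFC1: tggccgttggaaTTCAAAagtggcgggtgt
KIF20B: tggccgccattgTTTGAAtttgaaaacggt
KIF24: acagcgcgggcgTTCGAActggcgcttggc

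The first base of the match lies at -55 from the start in KIF23 (chr15:69414282-69414311, plus strand), at -35 in KIF15 (chr3:44761747-44761776, plus), at -34 in KIF4A (chrX:70290058-70290087, plus), at -28 in KIF11 (chr10:92593090-92593119, plus), at -27 in KIF22 (chr16:29790712-29790741, plus) and at -10 in KIF18A (chr11:28108149-28108178, minus). It lies after the start at 2 in KIF14 (chr1:200620733-200620762, minus), 3 in KIF18B (chr17:44947754-44947783, minus), 5 in KIFC1 (chr6:33391815-33391844, plus), 25 in KIF20B (chr10:89701602-89701631, plus) and 2 in KIF24 (chr9:34329250-34329279, minus). KIF22 has a second start in the promoter table, from which the same match lies at -244. In KIF20B a second match follows directly and is left in lower case. The match in KIF5B lies farther out, at -140.

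The 120 bases before the start of 4 genes show both motifs together and their absence, with CHR and CCAAT letters of either strand in capitals (ATTGG is CCAAT on the opposite strand). KIF4A and KIF11 stand for the mitotic genes, KIF24 is the member with the smallest p-value below, and KIF1C is the most abundant transport kinesin.
KIF4A: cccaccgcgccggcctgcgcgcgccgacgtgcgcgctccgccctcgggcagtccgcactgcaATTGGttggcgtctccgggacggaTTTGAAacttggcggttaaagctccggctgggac
KIF11: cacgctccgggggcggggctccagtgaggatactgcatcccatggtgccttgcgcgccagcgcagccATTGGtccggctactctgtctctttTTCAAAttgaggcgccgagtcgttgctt
KIF24: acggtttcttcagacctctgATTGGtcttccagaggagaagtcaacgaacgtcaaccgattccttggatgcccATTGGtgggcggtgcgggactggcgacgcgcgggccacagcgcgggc
KIF1C: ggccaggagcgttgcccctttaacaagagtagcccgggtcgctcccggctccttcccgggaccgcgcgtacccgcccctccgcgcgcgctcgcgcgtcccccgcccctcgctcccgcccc

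These stretches are chrX:70289984-70290103 (plus) for KIF4A, chr10:92593010-92593129 (plus) for KIF11, chr9:34329269-34329388 (minus) for KIF24 and chr17:4997830-4997949 (plus) for KIF1C. KIF4A and KIF11 hold 1 CCAAT box and 1 CHR each, KIF24 holds 2 CCAAT boxes in this stretch with its CHR just past it, and KIF1C holds neither.

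No kinesin gene differed between RfA1 and GFP cells at an adjusted p under 0.05 in the quasi-likelihood test of edgeR, adjusted by Benjamini-Hochberg, and 10 of 13002 tested genes did (0.0769%). DESeq2 and limma on TPM also called no kinesin. The smallest adjusted p of a kinesin was 0.26. At an unadjusted p under 0.05, 3 kinesins were higher in RfA1 cells (KIF2A, KIF23 and KIF13A) and 3 were lower (KIF24, KIF6 and KIFC2), where 7.3% of all genes were higher and 6.64% lower. In normalized CPM, the 3 RfA1 libraries lay above the 3 GFP libraries for 4 kinesins (KIF23, KIF13A, KIF3A and KIF5A) and below for 2 (KIF24 and KIF6). Among these kinesins only KIF24 and KIF5A also stayed apart in TPM. Of all genes, 9.86% lay above and 8.01% below in CPM. These shares of the 38 members are near the background. With 3 libraries against 3, an exact permutation test of 1 gene cannot give a p below 0.1. The labels do not say that the replicates were separate cultures, so the p-values measure the spread between these libraries.

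The 95% interval of the log2 fold change excluded a doubling or a fall to 1 part in 2 (a log2 change of 1) for all 38 kinesins, and lay within 0.5 on either side of 0 for 29 of them. Standard errors ran from 0.077 for KIF20A to 0.32 for KIF12. The median absolute log2 fold change of the kinesins was 0.13, as it was over all tested genes (0.13).

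**Figure D3:**
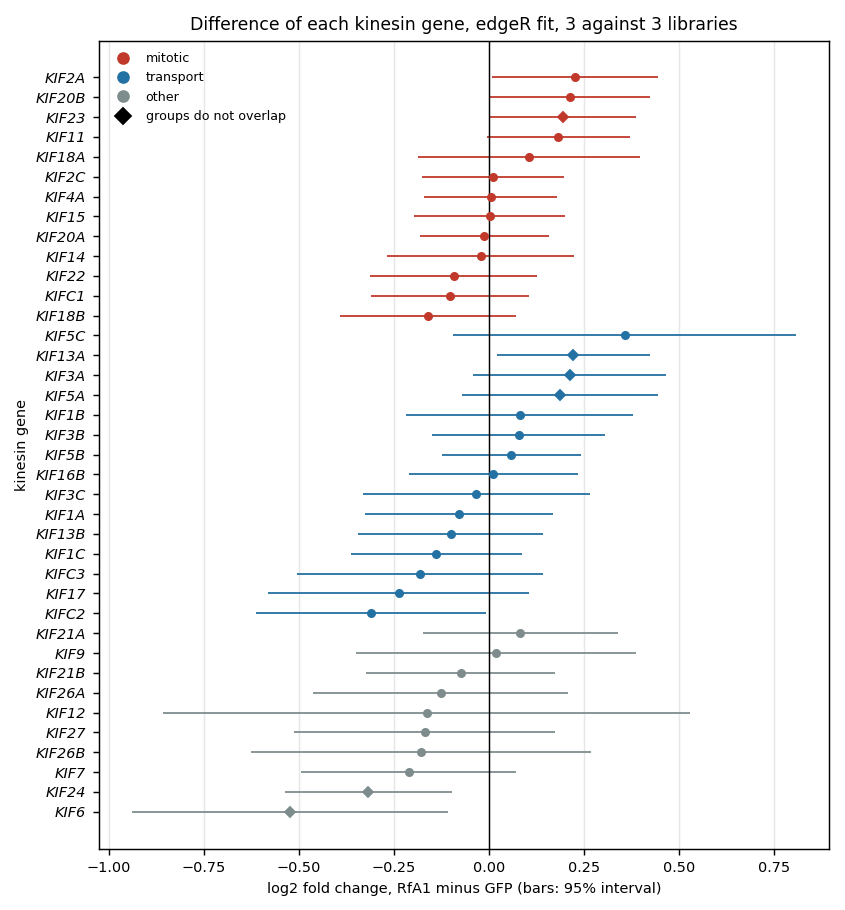
Log2 fold change (RfA1 minus GFP) of each kinesin gene from the edgeR fit with its 95% interval, sorted within role. Diamonds mark the 6 genes whose 3 RfA1 and 3 GFP libraries do not overlap in normalized CPM. All intervals lie between -1 and 1, and no gene passed the adjusted p.

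By role, 8 of 13 mitotic kinesins had a positive log2 fold change and the median was 0.0047. For the transport kinesins the count was 8 of 15 and the median 0.012. Of the other kinesins 2 of 10 were positive, with a median of -0.17. Over all tested genes 49.5% were positive and the median was -0.0024.

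KIF2A, which depolymerizes microtubules at spindle poles, had the largest estimate among the mitotic kinesins. Its CPM was 97.3, 86.4 and 93.2 in GFP cells and 117, 92.7 and 114 in RfA1 cells. RfA1 replicates 1 and 3 lay above all GFP libraries and replicate 2 among them. The log2 fold change was 0.23 ± 0.10 (SE; adjusted p = 0.35 by edgeR). KIF23 (NCBI Gene 9493), or MKLP1, the motor subunit of centralspindlin in cytokinesis, had 85.3, 82.3 and 76.2 CPM in GFP cells and 90.4, 86.9 and 102 CPM in RfA1 cells. Its groups do not overlap in CPM, but the highest GFP and the lowest RfA1 library are close. In TPM they overlap, with 38.13, 34.78 and 33.09 in GFP cells and 42.34, 37.08 and 48.05 in RfA1 cells. The log2 fold change was 0.19 ± 0.088 (edgeR adjusted p = 0.36).

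KIF20B, a plus-end motor of late cytokinesis, had 55.3, 49.6 and 54.6 CPM in GFP cells and 67.2, 54.7 and 62.9 CPM in RfA1 cells, again with RfA1 replicate 2 within the GFP range (log2 fold change 0.21 ± 0.097, edgeR adjusted p = 0.36). KIF22 had 185, 207 and 197 CPM in GFP cells and 175, 212 and 165 CPM in RfA1 cells, so that the RfA1 libraries reached both above and below the GFP ones. Its log2 fold change was -0.093 ± 0.10 (edgeR adjusted p = 0.68), and it was 0.025 after the GC correction. The remaining 9 mitotic kinesins had estimates from -0.16 (KIF18B) to 0.18 (KIF11). KIF11 itself was at 0.18 ± 0.086 and KIF15, which can stand in for it in pole separation, at 0.0024 ± 0.091. KIF18A, which damps chromosome movements at the metaphase plate, was at 0.10 ± 0.13. KIF14, a cytokinesis motor that binds citron kinase, was at -0.021, KIF20A at -0.012, KIF2C at 0.011 and KIFC1 at -0.10. KIF4A, which sets the length of central spindle microtubules with PRC1, was at 0.0047, with an interval of -0.17 to 0.18. Reads of KIF4A and of its intronless copy KIF4B may be shared by the counting and are uncertain to that extent.

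**Figure D4:**
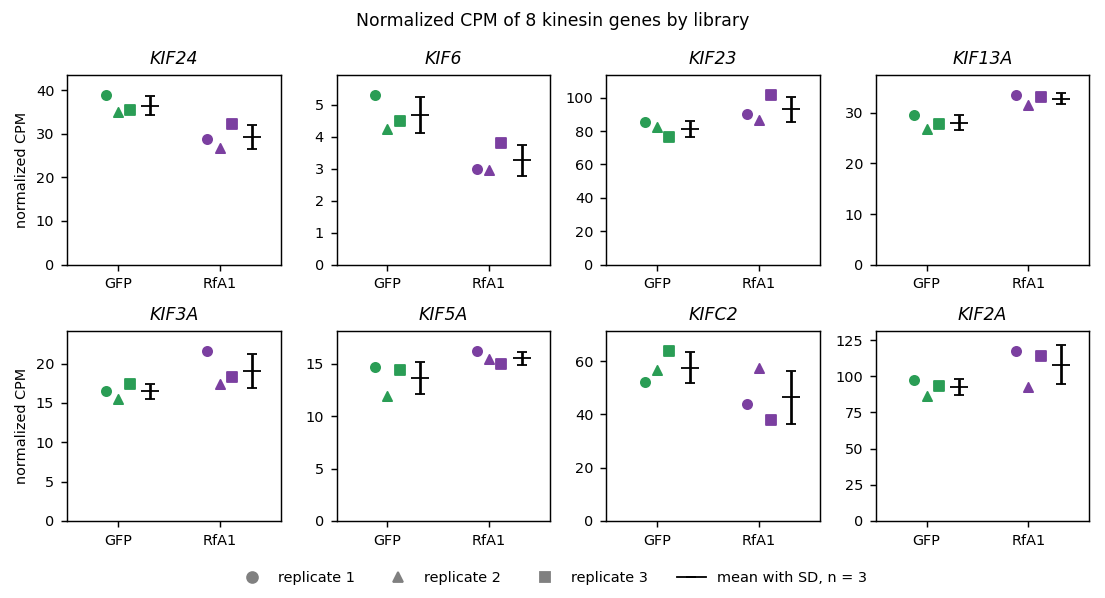
Normalized CPM of 8 kinesin genes in each library, with the replicate number as the symbol and the mean with its SD (n = 3) beside each group. For KIF24 and KIF6 the RfA1 libraries lie below all GFP libraries, for KIF23, KIF13A, KIF3A and KIF5A above them, and for KIFC2 and KIF2A RfA1 replicate 2 (triangle) lies with the GFP libraries.

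Among the transport kinesins KIF13A, which moves recycling endosomes and melanosome cargo, had groups that do not overlap. Its CPM was 29.7, 26.9 and 27.7 in GFP cells and 33.6, 31.6 and 33.2 in RfA1 cells, with each RfA1 library the higher. The log2 fold change was 0.22 ± 0.092 (adjusted p = 0.32 by edgeR). Its TPM did not follow, with 15.19, 11.59 and 13.03 in GFP cells and 10.97, 19.33 and 12.29 in RfA1 cells, so the groups overlap on that scale.

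KIF3A, a subunit of the kinesin-2 motor of intraflagellar transport, had 16.6, 15.5 and 17.4 CPM in GFP cells and 21.6, 17.4 and 18.3 CPM in RfA1 cells. The groups touch without overlapping in CPM (log2 fold change 0.21 ± 0.12, edgeR adjusted p = 0.42). KIF3A did overlap in TPM, with 6.26, 5.29 and 6.31 in GFP cells and 7.77, 6.22 and 5.77 in RfA1 cells. Its partner KIF3B had an estimate of 0.078 and the alternative partner KIF3C one of -0.032. KIF5A had 14.7, 11.9 and 14.4 CPM in GFP cells and 16.20, 15.44 and 14.96 CPM in RfA1 cells (0.19 ± 0.12, edgeR adjusted p = 0.47). KIF5C, at 3.33, 4.06 and 3.36 CPM in GFP cells and 5.55, 3.53 and 4.67 CPM in RfA1 cells, had the largest estimate of the group and overlapping libraries (0.36 ± 0.21, edgeR adjusted p = 0.44). The main heavy chain KIF5B was at 0.059 ± 0.083.

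KIFC2, a minus-end motor of the nervous system, had the lowest estimate among the transport kinesins. Its CPM was 52.2, 56.6 and 63.8 in GFP cells and 44.0, 57.4 and 37.8 in RfA1 cells, with RfA1 replicate 2 inside the GFP range and the other 2 below it (log2 fold change -0.31 ± 0.14, edgeR adjusted p = 0.35). KIF17, which carries receptor cargo in dendrites and acts in cilia, had 21.3, 29.6 and 28.2 CPM in GFP cells and 24.5, 25.2 and 17.4 CPM in RfA1 cells (-0.24 ± 0.16, edgeR adjusted p = 0.49). KIF1C, the most abundant of the group, had 256, 299 and 291 CPM in GFP cells and 246, 293 and 229 CPM in RfA1 cells (-0.14 ± 0.10, edgeR adjusted p = 0.54). Both KIF17 and KIF1C overlap between the groups. The synaptic vesicle motor KIF1A was at -0.078, KIF1B at 0.082, KIF13B at -0.10, the endosome motor KIF16B at 0.012 and the minus-end motor KIFC3 at -0.18, all with overlapping groups.

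The remaining role holds the members placed neither with the mitotic nor with the transport kinesins, among them kinesins of cilia and of microtubule length. KIF24 (NCBI Gene 347240), which shortens centriolar microtubules and holds back cilium formation with CP110, had the smallest p of all kinesins. Its CPM was 39.0, 35.0 and 35.4 in GFP cells and 28.8, 26.8 and 32.2 in RfA1 cells. Every RfA1 library, replicate 2 included, lay below every GFP library. The log2 fold change was -0.32 ± 0.10 (adjusted p = 0.26 by edgeR), and its level per length was 8.68 ± 0.55 TPM in GFP cells and 7.12 ± 0.83 TPM in RfA1 cells.

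KIF6, a kinesin of motile cilia, was low, with 5.31, 4.24 and 4.50 CPM in GFP cells and 3.003, 2.955 and 3.811 CPM in RfA1 cells. The groups do not overlap in CPM, and the log2 fold change was -0.52 ± 0.19 (edgeR adjusted p = 0.29). KIF6 had 2.69, 2.33 and 2.57 TPM in GFP cells and 1.53, 1.39 and 2.58 TPM in RfA1 cells, so the groups overlap on that scale. KIF7, which organizes the tip of the primary cilium and regulates GLI proteins in Hedgehog signaling, had 87.4, 98.3 and 99.0 CPM in GFP cells and 71.4, 102 and 72.2 CPM in RfA1 cells. RfA1 replicates 1 and 3 lay below the GFP libraries and replicate 2 above them (-0.21 ± 0.13, edgeR adjusted p = 0.46). Its paralog KIF27 was at -0.17 ± 0.16. KIF21A and KIF21B, which restrain microtubule growth, were at 0.083 and -0.074. KIF9, another kinesin of motile cilia, was at 0.019. KIF26A and KIF26B were at -0.13 and -0.18, and KIF12, with the widest interval (-0.86 to 0.53), was at -0.16.

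RfA1 replicate 2 changed the counts. Without it, 10 of the 38 kinesins passed the adjusted p (26.3%), where 20.1% of all tested genes did (2636 genes), by the same edgeR test. Higher in the remaining RfA1 libraries were KIF2A (log2 fold change 0.33, adjusted p = 0.0074), KIF20B (0.29), KIF11 (0.25) and KIF23 (0.24), all mitotic. Lower were KIFC2 (-0.49, adjusted p = 0.0042), KIF7 (-0.40, adjusted p = 0.0037), KIFC3, KIF26A, KIF1C and KIF18B (-0.28), of which KIF18B is also mitotic. The 4 higher genes all have transcripts under 50% GC and the 6 lower ones all have transcripts over 50% GC. KIF24 was not among them (-0.26, adjusted p = 0.073). Leaving out GFP replicate 1, 2 or 3, or RfA1 replicate 1 or 3, gave in each case 0 kinesins past the adjusted p. RfA1 replicate 2 was set apart by its place near GFP libraries in the first component. The adjusted p-values without it therefore rest on a choice made from these data.

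With all 6 libraries the sign of the kinesins' estimates also went with GC content. Of 20 kinesins with a transcript under 50% GC, 15 had a positive log2 fold change (median 0.080), and of 18 at or above 50% GC, 3 did (median -0.11). Over all genes the medians were 0.083 and -0.10. Across the 38 kinesins Spearman's rho between GC content and log2 fold change was -0.68, and across 12917 genes it was -0.55, where genes share the 6 libraries and are not independent. Within single libraries, rho between GC content and the kinesins' deviation was 0.78 in GFP replicates 2 and 3, 0.74 in RfA1 replicate 2, -0.41 in GFP replicate 1, -0.60 in RfA1 replicate 1 and -0.85 in RfA1 replicate 3. Median GC content was 42.3% for the mitotic, 51.4% for the transport and 52.2% for the other kinesins. Whether the GC trend arose in library preparation or in the cells was not tested.

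After each library was corrected for transcript GC content, rho across the kinesins was -0.091 and the medians of the 3 roles were 0.0041, 0.040 and -0.022, against 0.0050 over all genes. A correction of this kind also removes any true difference that follows GC content. With it, 1 kinesin passed the adjusted p, where 203 of 13002 genes did (1.56%). This was KIF24, whose transcript has 49.5% GC (log2 fold change -0.33 ± 0.082, adjusted p = 0.048 by edgeR). At an unadjusted p under 0.05, KIF2A and KIF13A were higher (9.33% of all genes) and KIF24, KIF6 and KIF27 were lower (6.79% of all genes). KIF6 was at -0.55 (edgeR adjusted p = 0.15), whereas KIFC2 moved from -0.31 to -0.11, KIF7 from -0.21 to -0.045 and KIF20B from 0.21 to 0.074. With the correction and each library left out in turn, the estimate of KIF24 ran from -0.39 to -0.28. It passed without RfA1 replicate 2 (adjusted p = 0.048 by edgeR) and did not pass without any one of the other 5 libraries (0.053 to 0.20).

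**Figure D5:**
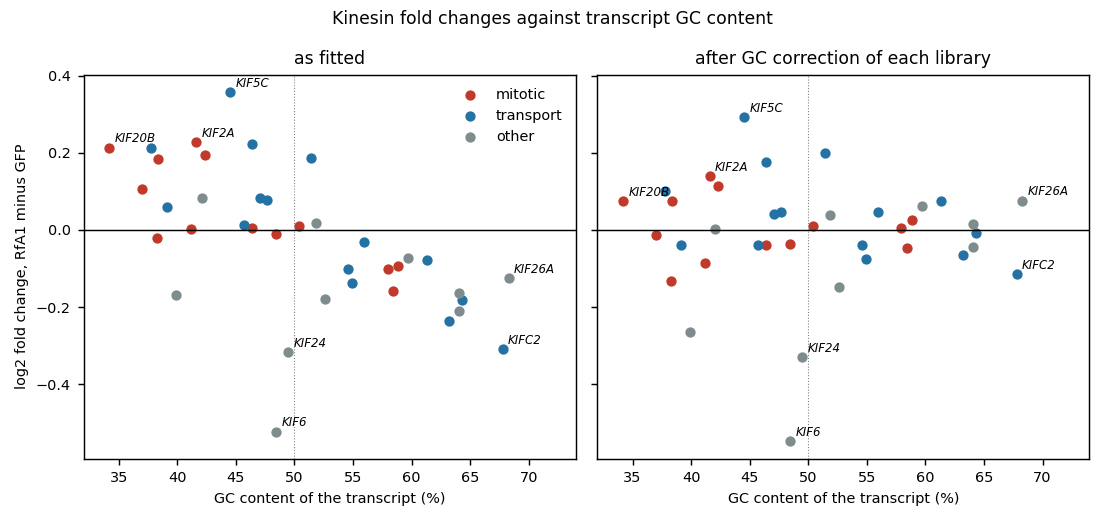
Log2 fold change (RfA1 minus GFP) of the 38 kinesin genes against the GC content of the transcript, as fitted (left) and after the GC correction of each library (right). Spearman's rho is -0.68 on the left and -0.091 on the right. KIF24 and KIF6 stay at the bottom in both panels, and KIFC2 and KIF20B move towards 0.

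Genes that work with the kinesins were described in 3 lists. Of 25 genes that act with mitotic kinesins, among them AURKB, PRC1, TPX2 and RACGAP1, none passed the adjusted p, 18 had a positive log2 fold change, where 49.5% of all genes did, and the median was 0.064. The median was 0.028 with the GC correction. Without RfA1 replicate 2, 9 of the 25 passed (36.0%, where 20.1% of all genes did), with RACGAP1, ECT2, ANLN, MAPRE1 and ASPM higher and INCENP, PLK1, TACC3 and NUMA1 lower. CENPE, the kinetochore kinesin whose symbol does not follow the KIF pattern, had 74.1, 74.2 and 71.1 CPM in GFP cells and 80.0, 70.9 and 76.5 CPM in RfA1 cells, with overlapping groups (0.052 ± 0.081, edgeR adjusted p = 0.78). The smallest p in this list was that of ANLN, an actin scaffold of the cleavage furrow, with 93.5, 90.5 and 93.3 CPM in GFP cells and 115.5, 97.9 and 113.8 CPM in RfA1 cells. Its groups do not overlap in CPM but do in TPM, and the log2 fold change was 0.24 ± 0.085 (edgeR adjusted p = 0.29). At an unadjusted p under 0.05, 3 of the 25 were higher, where 7.3% of all genes were, and 1 was lower, where 6.64% were.

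Of 22 cargo adaptors and light chains of transport kinesins, 12 were positive, the median was 0.029 and none passed the adjusted p, with 1 higher and 2 lower at an unadjusted p under 0.05 (7.3% and 6.64% of all genes). The median was 0.040 with the GC correction. Without RfA1 replicate 2 it was -0.085 and 6 of the 22 passed (27.3%, where 20.1% of all genes did), with KLC3, KLC4, RHOT2, MAPK8IP2 and MAPK8IP3 lower. MAPK8IP3, or JIP3, had the smallest p with all 6 libraries, at 166.5, 187.6 and 192.4 CPM in GFP cells and 124.8, 174.2 and 129.2 CPM in RfA1 cells. RfA1 replicate 2 lay within the GFP range and the other 2 below it (-0.35 ± 0.12, edgeR adjusted p = 0.28), and the estimate was -0.18 after the GC correction. Its relative MAPK8IP1, or JIP1, which links kinesin-1 to cargo, passed the adjusted p after that correction (0.33, edgeR adjusted p = 0.017) and not before it (0.16, adjusted p = 0.46) or without RfA1 replicate 2 (adjusted p = 0.52). Of 11 tested genes of the cilium and Hedgehog pathway, 6 were positive, the median was 0.025 (0.044 with the GC correction) and none passed. Without RfA1 replicate 2 the median was -0.0086 and 2 of the 11 passed (18.2%, where 20.1% of all genes did), CCP110 higher and EVC lower. EVC, a ciliary membrane protein of Hedgehog signaling, had the smallest p with all 6 libraries, at 35.0, 45.6 and 40.8 CPM in GFP cells and 33.9, 33.5 and 31.2 CPM in RfA1 cells. Its groups do not overlap in CPM (-0.30 ± 0.11, edgeR adjusted p = 0.29) but do in TPM. EVC was the 1 gene of the list at an unadjusted p under 0.05, where 6.64% of all genes were lower.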

How the data were processed

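RNA-seq libraries of GFP (n = 3) and RfA1 (n = 3) cells were taken from 1 deposited table of 16655 genes, grouped by the sample labels. The authors aligned reads with HISAT to GRCh38.p13, per the submitters' processing notes. The counting tool, annotation and strandedness are not given in the sources used here. The table holds the authors' estimated counts without normalization (7.39% to 8.02% not whole), the authors' TPM, and the authors' FPKM and group means, which were not used.

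Counts were rounded, filtered by filterByExpr (minimum count 10, minimum total 15; 13002 genes kept), normalized by TMM and compared with the robust quasi-likelihood test of edgeR 4.0.16 in R 4.3.3, two-sided, with Benjamini-Hochberg adjustment over all tested genes and a threshold of 0.05. All 38 kinesin genes passed the filter. Counting error enters through the counts. The alternatives were upper-quartile and total-size normalization, DESeq2 1.42.0, other count filters, limma 3.58.1 on log2(TPM + 1) and log2(TPM + 0.1), a replicate block, a GC correction, both together, and each library left out in turn. The GC correction with each library left out was chosen after seeing the data. The GC correction fitted a spline with 5 degrees of freedom on GC content of 1 GENCODE transcript per gene in each library and entered it as an offset. It matched 98.3% of the genes. Scripts were tested on simulated data. Figures were drawn with matplotlib 3.10.9.

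The kinesin genes, their roles and the partner lists were chosen with earlier results of these data known. Values in every library are given for members past the adjusted p with or without the block, members whose groups do not overlap, the 3 largest absolute changes and the highest mean TPM in each role, and for partners the smallest p per list and CENPE. Promoter genes were chosen after their letters were seen.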

Additional observations from a re-analysis of the deposited data

How the results depend on the processing

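The number of genes past the adjusted p depended on the fit. Against 10 genes in the edgeR test, 6 passed with upper-quartile normalization, 33 with DESeq2, 20 without a filter on low counts, 4 with limma on log2(TPM + 1), 4 on log2(TPM + 0.1) and 203 with the GC correction. Leaving out each library gave 0 to 2636, the highest without RfA1 replicate 2, and with the GC correction as well 58 to 870. The cause was not tested. The count of kinesins was 0 in all of these except 1 with the GC correction, 0 to 10 with each library left out and 0 to 1 with both.

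Whether the replicate numbers pair the libraries is not known, and neither labels nor methods tie a number to a shared day or dish. The correlations of same-numbered deviations were 0.17, 0.32 and -0.14. RfA1 replicates 1 and 2 correlated best with the GFP library of their own number, and RfA1 replicate 3 with GFP replicate 1 (0.35). With 3 libraries in each group, these correlations cannot decide it. With the replicate block, 625 of 13002 genes and 1 of 38 kinesins passed (KIF24, edgeR adjusted p = 0.047). With the GC correction and the block, 463 of 13002 genes and 1 of 38 kinesins passed (KIF24, edgeR adjusted p = 0.014).

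The median log2 fold change of the mitotic kinesins was 0.075 on log2(TPM + 1) and 0.076 on log2(TPM + 0.1), where the median of all genes was 0.045 and 0.052, and ranged from -0.018 to 0.064 with each library left out and from -0.030 to 0.037 with the GC correction as well. That of the other kinesins was -0.048 and -0.084 on these scales, -0.022 with the GC correction, -0.023 with the GC correction and the replicate block, -0.23 to -0.012 with each library left out, and -0.10 to 0.033 with the GC correction as well. That of the transport kinesins moved by less than the spread between replicates in all settings. For the 14 kinesins given by library, 308 refits held 8 changes of sign in 2 genes, neither called, and 10 calls that the edgeR test did not make. Standard errors were over 0.2 for KIF12, KIF26B and KIF5C, for which small differences were not detectable.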
